A study of Mus musculus with 10 samples.

Results

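Edaradd, the death domain adaptor of the ectodysplasin receptor, was examined together with the TNF receptors Tnfrsf13c, Tnfrsf13b, Cd40 and Cd27 and the TNF receptor associated factors Traf1, Traf2, Traf3 and Traf5 in pro-B cells of mice with different Pax5 alleles. These 9 genes are a list of names, chosen by the TPM values and Pax5 peaks of the same data as known from earlier results, out of 25579 genes with values, and all 9 were among the 13436 genes that reached 1 TPM in at least 1 library. In Pax5R31Q/- pro-B cells the mean TPM of Edaradd was 17.4-fold lower than in Pax5+/+ pro-B cells, while the other 8 genes differed by less than the 3-fold threshold. In Pax5-/- progenitors Edaradd and Cd40 were lower and Cd27 was higher. Of the 22 Pax5 peaks found in and near these genes in Pax5+/+ cells, 12 (54.5%) were met by a peak of Pax5R31Q/- cells, against 37.5% of all Pax5+/+ peaks and 55.8% of those without a word of 24 bases that recurs through the list. The 10 others included 4 of the 6 peaks at Edaradd.

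RNA-seq was performed on bone marrow cells of C57BL/6 mice, sorted ex vivo, with 2 libraries for each of 4 genotypes. Pax5+/+ cells were wild type, Pax5+/- cells carried 1 null allele, and Pax5R31Q/- cells carried the R31Q allele, which changes an arginine of the DNA-binding paired domain, over a null allele. The 6 libraries of these genotypes are labeled pro-B cells, which the study sorted by surface markers that included B220 and Kit. The Pax5-/- cells came from Pax5fl/fl Vav-Cre mice, in which Cre recombinase acts in the hematopoietic system, and are labeled progenitor cells. Pax5 ChIP-seq was performed with 1 library per genotype on pro-B cells grown for a short term on OP9 stroma with IL-7. The library with intact Pax5 came from Rag2-/- cells, called Pax5+/+ below, and the other is given as Pax5R31Q/- by its genotype label, although its description places R31Q/- at Rag2. A Rag2 difference and the R31Q allele cannot be told apart in the peak lists, and the antibody was raised against the paired domain that holds the mutation. The ages of the mice are not given in the sources used here, and no label says whether the 2 libraries of a genotype came from different mice, so that p-values measure the spread between these libraries alone.

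TNF receptors are trimeric surface proteins that, once bound by their ligand, recruit TRAF proteins or death domain adaptors to their cytoplasmic tails and activate NF-κB and MAP kinases. Edaradd links the ectodysplasin receptor Edar to this pathway and is known from the development of hair, teeth and sweat glands. In the B cell lineage, the BAFF receptor encoded by Tnfrsf13c maintains mature B cells, TACI encoded by Tnfrsf13b binds BAFF and APRIL, and CD40 receives help from T cells. Traf2 and Traf3 restrain the alternative NF-κB pathway, while Traf1 is itself induced by NF-κB.

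The RNA-seq libraries held between 21625407 and 34488454 reads in genes, with the smallest number in Pax5-/- replicate 1. Pax5 itself measured 418 and 444 TPM in Pax5+/+ cells, 272 and 287 TPM in Pax5+/- cells, 306 and 293 TPM in Pax5R31Q/- cells, and 1242 and 1409 TPM in Pax5-/- cells. These values are sums over the whole gene, so that the deleted part cannot be seen and the label of the Pax5-/- cells is not checked by them. The summed TPM of 11 pro-B markers was 15944 to 18697 in Pax5+/+ cells, 14856 to 15697 in Pax5+/- cells, 14689 to 15124 in Pax5R31Q/- cells and 7759 to 8489 in Pax5-/- cells. Plasmacytoid dendritic markers (6 genes) summed to 1045 to 1537 TPM in Pax5-/- cells, 244 to 245 TPM in Pax5R31Q/- cells, 349 to 369 TPM in Pax5+/- cells and 302 to 341 TPM in Pax5+/+ cells. T cell markers (9 genes) summed to 374 to 386 TPM in Pax5-/- cells, 156 to 161 TPM in Pax5R31Q/- cells and 147 TPM in both Pax5+/- libraries, all above the 107 to 121 TPM of Pax5+/+ cells. Most of these T cell sums came from Lck and Tcf7. Lck measured 273 and 271 TPM in Pax5-/- cells against 60.4 and 63.4 TPM in Pax5+/+ cells. Tcf7 had a mean of 96.7 TPM (SD 6.48, n = 2) in Pax5-/- cells against 40.3 TPM (SD 10.6, n = 2) in Pax5+/+ cells. Cd5 went the other way, with means of 4.74 TPM in Pax5-/-, 4.83 TPM in Pax5R31Q/- and 6.90 TPM in Pax5+/+ cells. Cd4 had means of 4.49, 1.02 and 3.87 TPM in that order. Cd8a had 0.695, 0.0928 and 0.122 TPM, and Cd8b1 had 0.934, 0.172 and 0.697 TPM. Cd3d, Cd3e and Cd3g stayed at or below 0.666, 0.353 and 0.585 TPM in every library, with Cd3g at 0.585 and 0.277 TPM in Pax5-/- cells and 0.140 and 0.0787 TPM in Pax5+/+ cells. Markers of pre-B and later B cells summed to 198 to 223 TPM in Pax5+/+ cells, 344 to 396 TPM in Pax5+/- cells, 687 to 741 TPM in Pax5R31Q/- cells and 760 to 1015 TPM in Pax5-/- cells. Myeloid markers reached 2240 TPM in 1 Pax5-/- library and 425 TPM in the other, and summed to 973 to 1025 TPM in Pax5R31Q/- cells and 694 to 1573 TPM in Pax5+/- cells, both above the 424 to 646 TPM of Pax5+/+ cells. NK and innate lymphoid markers summed to 45.9 to 49.8 TPM in Pax5-/- cells, 18.3 to 31.9 TPM in Pax5R31Q/- cells, 19.8 to 22.3 TPM in Pax5+/- cells and 21.5 to 23.3 TPM in Pax5+/+ cells. Erythroid markers summed to 4.19 to 11.4 TPM, 16.9 to 19.5 TPM, 13.8 to 19.3 TPM and 18.2 to 27.4 TPM in the same order. In at least 1 library, 1 TPM was reached by 11 of 11 pro-B, 5 of 6 pre-B and later B, 6 of 9 T cell, 6 of 8 NK and innate lymphoid, 9 of 9 myeloid, 6 of 6 plasmacytoid dendritic and 2 of 5 erythroid markers, and Hba-a2 and Hbb-bs were at 0 throughout. The part of these other cell types in the differences given below was not tested.

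Edaradd (chromosome 13, 12471209 to 12520535, minus strand, GRCm38.p6) overlaps no other RefSeq gene. It measured 26.0 and 26.2 TPM in the Pax5+/+ libraries, 8.54 and 9.35 TPM in the Pax5+/- libraries, 1.48 and 1.52 TPM in the Pax5R31Q/- libraries, and 0.381 and 0.489 TPM in the Pax5-/- libraries. The 4 genotypes thus formed a descending order in which no neighbors overlapped. In bulk RNA, fewer cells with the transcript and less transcript per cell cannot be told apart. The recovered read numbers behind these values were 2929 and 2639 in Pax5+/+ cells, 167 and 168 in Pax5R31Q/- cells, and 31 and 56 in Pax5-/- cells, with exact Poisson 95% intervals of 0.259 to 0.541 TPM and 0.369 to 0.635 TPM for the last pair, which cover counting error only.

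**Figure D1:**
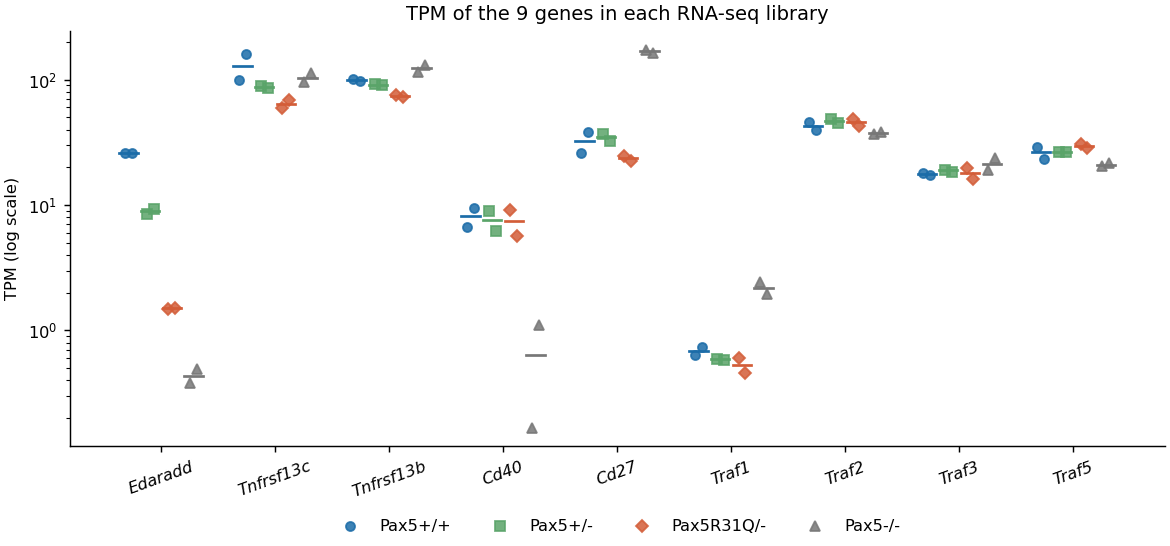
TPM (y axis, log scale) of each of the 9 genes (x axis) in the 8 RNA-seq libraries, with 1 point per library and a line at the mean of the 2 libraries of a genotype. Edaradd descends from 26.1 TPM in Pax5+/+ cells to 0.435 TPM in Pax5-/- cells, Cd40 is low in the 2 Pax5-/- libraries alone, and Cd27 is high in them alone.

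Since the genes were listed with these contrasts known, their differences are given as descriptions without a test, with the standard error of the limma fit. A gene is said below to pass 3-fold when it differed by more than that on the log2(TPM + 1) scale and had a mean above 5 TPM in 1 of the 2 genotypes. Edaradd differed from Pax5+/+ cells by a log2 value of -3.44 (SE 0.15) in Pax5R31Q/- cells and was the only one of the 9 genes to pass 3-fold there, where 0.603% of all 13436 genes were lower by this rule and 0.387% higher. It differed by -1.45 (SE 0.15) in Pax5+/- cells, with a 2.92-fold lower mean TPM. None of the 9 genes passed 3-fold in these cells, and 0.0819% of all genes were lower by this rule and 0.0447% higher. Edaradd differed by -4.24 (SE 0.15) in Pax5-/- cells, a 60.0-fold lower mean TPM, where 3.92% of all genes were lower by this rule. The comparison of Pax5R31Q/- with Pax5+/- cells, which both have a single allele that can give full-length protein, showed a further log2 difference of -1.99 (SE 0.15), with a 5.96-fold lower mean TPM. Edaradd was the only one of the 9 genes to pass 3-fold there, where 0.141% of all genes were lower and 0.149% higher. Between Pax5R31Q/- and Pax5-/- cells the log2 difference was 0.80 (SE 0.15), and the mean TPM was 3.45-fold higher in Pax5R31Q/- cells. At these low levels the value depended on the scale, with 1.59 for a pseudocount of 0.1 and 1.66 for limma-voom on the recovered reads, and both means were below 5 TPM.

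Edar, the receptor that Edaradd serves, was listed at 0 in all 8 libraries, and the ligand gene Eda lay between 0.211 and 0.390 TPM, an observation made after these values were seen. Edaradd in Pax5+/+ cells, at 26.1 TPM (SD 0.184, n = 2), was above both genes on this scale per transcript length.

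The genes with the pattern most like that of Edaradd were taken from 10172 genes with a mean of at least 5 TPM, by the root mean square difference of log2(TPM + 1) over the 8 libraries after each gene's own mean had been taken off. Polm, which encodes a DNA polymerase used in V(D)J joining, was nearest at 0.25, followed by Uchl1 (0.33), Cldn4 (0.39), Siglecg (0.46) and Plpp3 (0.46), against a median of 1.64 over all genes compared. Mean Polm was 33.0 TPM in Pax5+/+, 1.94 TPM in Pax5R31Q/- and 1.09 TPM in Pax5-/- cells. The ubiquitin hydrolase gene Uchl1 had means of 150, 90.2, 15.1 and 11.4 TPM in Pax5+/+, Pax5+/-, Pax5R31Q/- and Pax5-/- cells, and the claudin gene Cldn4 had 19.5, 8.02, 0.439 and 0.133 TPM in that order.

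The Pax5+/+ list held 6 peaks in Edaradd or within 10 kb of it, and the Pax5R31Q/- list held 2. The peak at the transcription start site (TSS), at chr13:12520204-12520617 with its midpoint 40 bp from an annotated TSS, was met by a Pax5R31Q/- peak of 785 bp. The other shared peak, at chr13:12461368-12461704, lay beyond the 3′ end of Edaradd and 202 bp from a TSS of the neighboring gene Lgals8. The 4 Pax5+/+ peaks without a Pax5R31Q/- counterpart were 3 intronic peaks, 886 bp, 9028 bp and 16986 bp from the TSS, and a peak 2060 bp upstream of it that was 74.3% repeat-masked in its central 300 bp. The intronic peak nearest to the TSS was only 119 bp away from the Pax5R31Q/- peak at the TSS, whereas those farther inside were 8251 bp and 16007 bp away from any Pax5R31Q/- peak. The innermost, at chr13:12503112-12503816, was 705 bp wide and was the widest unmet Pax5+/+ peak at the listed genes. A width at least as large, a cut set by this peak itself, was reached by 7.5% of all Pax5+/+ peaks, of which 96.5% were met. The central 300 bp of the innermost peak held no repeat-masked sequence.

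**Figure D2:**
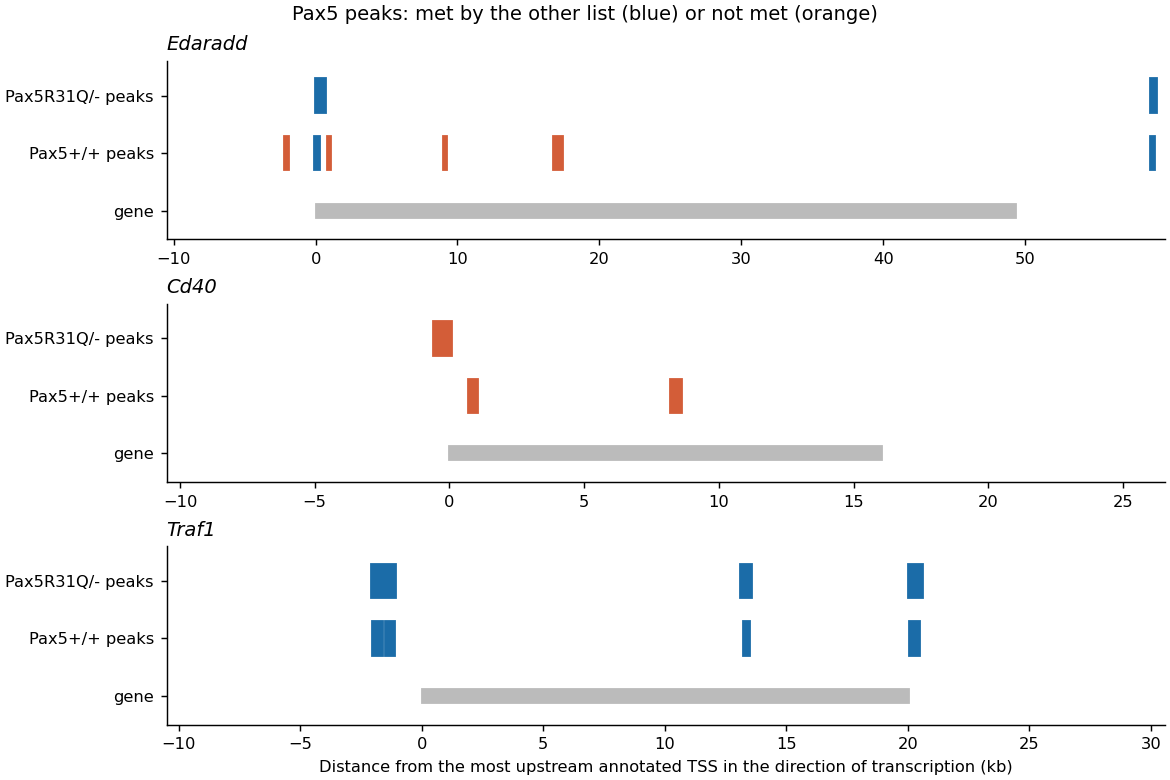
Pax5 peaks of both lists at Edaradd, Cd40 and Traf1, with the distance from the most upstream annotated TSS in kb on the x axis, the gene as a gray bar, and peaks met by the other list in blue and those not met in orange. At Edaradd the peaks at the TSS and beyond the 3′ end are shared and the 4 other Pax5+/+ peaks are not, at Cd40 no peak is shared, and at Traf1 all are, with 2 Pax5+/+ peaks upstream that are drawn side by side under 1 wider Pax5R31Q/- peak.

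The sequences of both inner Edaradd peaks and of the Pax5+/+ peak at Cd40 nearest to its TSS are shown because they were bound in Pax5+/+ cells and met by no Pax5R31Q/- peak, with up to 300 bases around each peak midpoint on the plus strand of GRCm38.p6. Capitals mark the 15 bases nearest, on either strand, to the paired domain recognition sequences GCANCCA and GCGTGAC set 1 base apart, which together have 13 informative letters.
Edaradd intron, chr13:12503315-12503614: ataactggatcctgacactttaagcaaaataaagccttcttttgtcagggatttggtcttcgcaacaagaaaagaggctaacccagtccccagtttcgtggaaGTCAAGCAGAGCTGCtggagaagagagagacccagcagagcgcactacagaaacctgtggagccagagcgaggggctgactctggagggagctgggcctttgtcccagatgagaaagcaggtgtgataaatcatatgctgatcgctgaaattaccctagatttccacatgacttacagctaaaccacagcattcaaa
Edaradd intron, chr13:12511273-12511572: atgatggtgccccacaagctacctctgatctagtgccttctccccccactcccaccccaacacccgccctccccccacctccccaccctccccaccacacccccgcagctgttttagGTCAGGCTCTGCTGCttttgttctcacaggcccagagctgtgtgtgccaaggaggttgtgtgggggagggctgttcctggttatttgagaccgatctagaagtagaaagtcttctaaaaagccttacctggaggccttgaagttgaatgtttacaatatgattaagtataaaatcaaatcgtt
Cd40 intron, chr2:165056348-165056647: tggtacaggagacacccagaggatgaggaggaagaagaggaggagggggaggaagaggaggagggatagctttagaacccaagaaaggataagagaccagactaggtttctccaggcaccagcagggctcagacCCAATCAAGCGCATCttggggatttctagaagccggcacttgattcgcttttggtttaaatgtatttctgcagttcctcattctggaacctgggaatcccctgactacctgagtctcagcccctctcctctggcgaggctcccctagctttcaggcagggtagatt
In both Edaradd sequences the capitals lie on the minus strand and have 3 mismatches, as few as in 10.9% of all Pax5+/+ peaks. The Cd40 sequence has 5 mismatches at best, which 98.3% of Pax5+/+ peaks reach. Neither GCGTGAC nor GCATGAC, searched on both strands, occurred in these 3 windows, and they occurred in 3.8% and 3.5% of all Pax5+/+ peaks in windows of 300 bp. The other recognition sequence, GCANCCA, was likewise absent from the 3 windows and occurred in 14.5% of all Pax5+/+ peaks. Such matches are descriptions of letters and not of binding sites.

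The receptors Tnfrsf13c and Tnfrsf13b, which both bind BAFF, were abundant in all genotypes and lowest in Pax5R31Q/- cells. Tnfrsf13c (chromosome 15, 82221742 to 82224380, minus strand) measured 100 and 159 TPM in Pax5+/+ cells, 88.3 and 85.8 TPM in Pax5+/- cells, 59.2 and 68.4 TPM in Pax5R31Q/- cells, and 96.3 and 112 TPM in Pax5-/- cells. Its log2 difference between Pax5R31Q/- and Pax5+/+ cells was -0.98 (SE 0.21), a 2.03-fold lower mean TPM with no overlap between the libraries, which lay far apart in Pax5+/+ cells. It was -1.30 without Pax5+/+ replicate 1 and -0.65 without Pax5+/+ replicate 2. Tnfrsf13b (chromosome 11, 61126283 to 61153170, plus strand) measured 102 and 96.8 TPM in Pax5+/+ cells, 91.9 and 90.2 TPM in Pax5+/- cells, 74.8 and 72.7 TPM in Pax5R31Q/- cells, and 116 and 131 TPM in Pax5-/- cells. No neighbors overlapped in this order, and the log2 difference from Pax5+/+ cells was -0.43 (SE 0.11) in Pax5R31Q/- cells and 0.31 (SE 0.11) in Pax5-/- cells. Neither gene passed 3-fold in any comparison. Tnfrsf13b overlaps Usp22 on the other strand, and its reads could not be told apart from those of Usp22 if the counting did not use strand. The ligands of both receptors were scarce, with Tnfsf13b, the gene of BAFF, between 0.266 and 0.792 TPM and Tnfsf13, the gene of APRIL, at or below 0.178 TPM.

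The Pax5 peaks of both genes differed in position. Tnfrsf13c had 1 Pax5+/+ peak, at chr15:82224267-82224582 over the TSS, which was met. Tnfrsf13b had 2, of 569 bp at chr11:61122713-61123281, 3286 bp upstream of its first TSS, and of 234 bp at chr11:61142307-61142540, 61 bp from an internal annotated TSS. Neither of these was met, and the nearest Pax5R31Q/- peak lay 36627 bp and 17368 bp away from them. This peak, of 757 bp at chr11:61159909-61160665 beyond the 3′ end of Tnfrsf13b, was not met by a Pax5+/+ peak.

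Cd40 (chromosome 2, 165055614 to 165071654, plus strand) overlapped among the 3 genotypes labeled pro-B cells. It measured 6.73 and 9.53 TPM in Pax5+/+ cells, 8.96 and 6.24 TPM in Pax5+/- cells, 9.13 and 5.68 TPM in Pax5R31Q/- cells, and 0.168 and 1.11 TPM in Pax5-/- cells. The Pax5-/- libraries lay below all others, with 3 and 28 recovered reads and exact Poisson 95% intervals of 0.0346 to 0.490 TPM and 0.738 to 1.61 TPM. The log2 difference of Pax5-/- from Pax5+/+ cells was -2.52 (SE 0.35), a 12.7-fold lower mean TPM. Its size rested on the Pax5-/- libraries and the scale, with -2.10 (7.32-fold) without replicate 1, -2.95 (48.5-fold) without replicate 2 and -3.86 by limma-voom on the recovered reads. Cd40 was higher in Pax5R31Q/- than in Pax5-/- cells by 2.39 (SE 0.35), and 3.18% of all genes were higher by more than 3-fold in that comparison. The difference between Pax5R31Q/- and Pax5+/+ cells was -0.13 (SE 0.35).

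Both Pax5+/+ peaks at Cd40 were intronic, 861 bp and 8377 bp from the TSS, and neither was met. Their central 300 bp were 18.3% and 83.0% repeat-masked. The Pax5R31Q/- list instead held a peak of 681 bp at chr2:165055013-165055693, with its midpoint 261 bp from the first TSS, that no Pax5+/+ peak met. It lay 614 bp from the first intronic Pax5+/+ peak. Cd40lg, the gene of the CD40 ligand, was listed at 0 in all 8 libraries.

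Cd27 (chromosome 6, 125232620 to 125237136, minus strand) was the only one of the 9 genes that passed 3-fold as higher in Pax5-/- than in Pax5+/+ cells, as did 3.11% of all genes. It measured 25.9 and 38.5 TPM in Pax5+/+ cells, 36.7 and 32.6 TPM in Pax5+/- cells, 24.8 and 22.5 TPM in Pax5R31Q/- cells, and 172 and 163 TPM in Pax5-/- cells. The Pax5-/- libraries stood above all others, whereas Pax5+/+ and Pax5+/- cells overlapped. The log2 difference from Pax5+/+ cells was 2.37 (SE 0.19) in Pax5-/- cells, a 5.21-fold higher mean TPM, and -0.40 (SE 0.19) in Pax5R31Q/- cells. The latter value rested on the Pax5+/+ libraries, with -0.68 without replicate 1 and -0.12 without replicate 2. Cd27 was lower in Pax5R31Q/- than in Pax5-/- cells, by a log2 value of -2.78 (SE 0.19), and 2.46% of all genes were lower by more than 3-fold. The ligand gene Cd70 was listed at 0 in all libraries. In the Pax5-/- libraries, which held more Cd27, the cytokine receptor gene Flt3 measured 385 and 356 TPM, against 9.79 and 9.54 TPM in Pax5+/+ cells. Flt3 is a progenitor marker, but it was also counted among the 6 plasmacytoid dendritic markers above and is part of their sum.

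Cd27 was the only one of the 9 genes without a Pax5+/+ peak within 10 kb. The Pax5R31Q/- list held 2 peaks there that no Pax5+/+ peak met. The peak at chr6:125231178-125231941 lay 52 bp from a TSS of the neighboring gene Tapbpl, and the peak at chr6:125241593-125242644 was 96.3% repeat-masked in its central 300 bp.

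**Figure D3:**
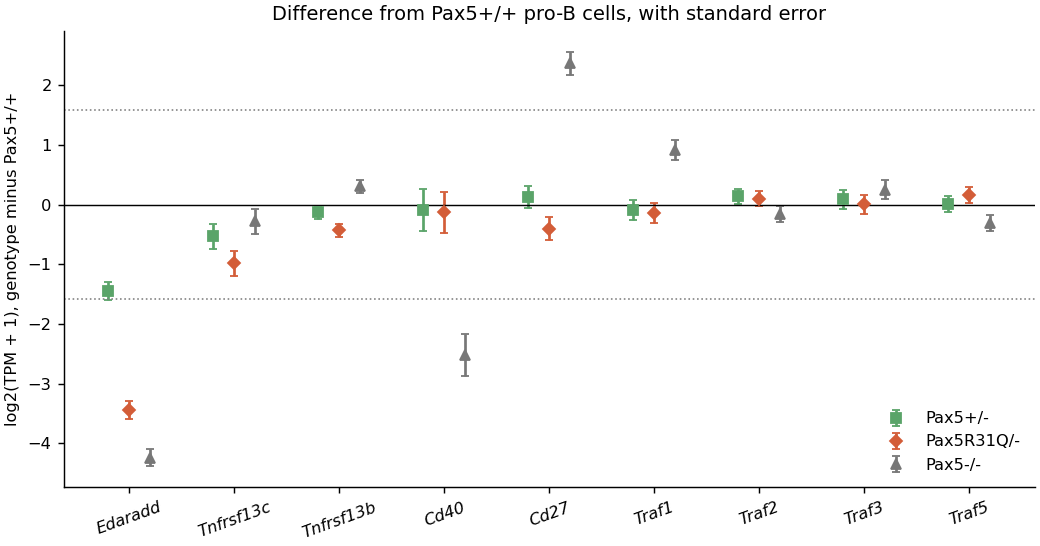
Difference in log2(TPM + 1) from Pax5+/+ cells (y axis) for each of the 9 genes (x axis) in Pax5+/-, Pax5R31Q/- and Pax5-/- cells, with the standard error of the limma fit as bars and dotted lines at 3-fold. Edaradd is below the lower line in Pax5R31Q/- and Pax5-/- cells, Cd40 is below it and Cd27 above the upper line in Pax5-/- cells, and the other values lie between the lines.

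None of the 4 TRAF genes passed 3-fold in any comparison, and Traf1 stood apart in Pax5-/- cells. Traf1 (chromosome 2, 34941750 to 34961812, minus strand) measured 0.637 and 0.736 TPM in Pax5+/+ cells, 0.596 and 0.577 TPM in Pax5+/- cells, 0.599 and 0.460 TPM in Pax5R31Q/- cells, and 2.44 and 1.94 TPM in Pax5-/- cells. Both Pax5-/- libraries were above all others, by a log2 difference of 0.92 (SE 0.17) and a 3.19-fold higher mean TPM, with a mean of 2.19 TPM. At this low level the value depended on the scale, with 1.54 for a pseudocount of 0.1 and 1.73, which is over 3-fold, for limma-voom on the recovered reads. Traf2, which recruits the ubiquitin ligases cIAP1 and cIAP2, lay between 37.2 and 49.0 TPM over all 8 libraries. Traf3, which targets the kinase NIK for degradation, lay between 16.1 and 23.6 TPM, and Traf5 between 20.3 and 30.6 TPM. Their log2 differences from Pax5+/+ cells ranged from 0.01 (SE 0.16) for Traf3 to 0.16 (SE 0.14) for Traf5 in Pax5R31Q/- cells, and from -0.31 (SE 0.14) for Traf5 to 0.25 (SE 0.16) for Traf3 in Pax5-/- cells. For Traf5 these values rested on the Pax5+/+ libraries, with 0.32 and -0.16 without replicate 1 and 0.01 and -0.46 without replicate 2. The value of Traf3 changed sign to -0.02 with median-ratio scaling and to -0.05 with quantile normalization. All 4 TRAF genes, and Cd27, overlap other RefSeq genes, and the RefSeq model of Traf5 is partial, so that their values are uncertain to that extent.

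At the TRAF genes 9 of 11 Pax5+/+ peaks were met, beside 37.5% of all Pax5+/+ peaks and 55.8% of those without the recurring word, and this count is a description of genes chosen with the peaks known. All 4 Pax5+/+ peaks at Traf1, a gene of low RNA level, were met, and none of them lay within 1 kb of its TSS. Those upstream of Traf1, of 419 bp and 467 bp, lay 420 bp and 919 bp from a TSS of the neighboring gene Gm46733. Both were met by the same Pax5R31Q/- peak of 1032 bp. Traf2 had a single Pax5+/+ peak of 733 bp, the widest of the 22, at chr2:25546543-25547275 over its TSS, which was met. Traf5 shared 3 of 4 peaks, including those at chr1:192092369-192092853 over the TSS and at chr1:192086561-192087046 in an intron. Traf3 shared the peak at chr12:111159741-111160263, 6319 bp upstream of its TSS, but not an intronic peak that was 53.7% repeat-masked in its central 300 bp, and the Pax5R31Q/- list had a further peak 1634 bp upstream.

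Over the 9 genes, 12 of 22 Pax5+/+ peaks (54.5%) were met, against 37.5% of all 41983 Pax5+/+ peaks. The commonest word of 24 bases in the Pax5+/+ list lay in 13880 peaks, of which 35 were met, and in none of the 22 peaks at these genes. Among the 28103 Pax5+/+ peaks without it, 55.8% were met. Of the 10 peaks not met, 3 were more than 50% repeat-masked in their central 300 bp, as was none of the 12 that were met, and 67.4% of all Pax5+/+ peaks masked to at most 50% were met. The shared peaks had a median width of 460 bp and the others of 375.5 bp. Of the 16 Pax5R31Q/- peaks at these genes, 5 had no Pax5+/+ counterpart, and 81.6% of all 18821 Pax5R31Q/- peaks had one. At 6 of the 9 genes, and at 67.4% of 12893 expressed genes, the midpoint of a Pax5+/+ peak was less than 1 kb away from a TSS. Such a peak was met at Edaradd, Tnfrsf13c, Traf2 and Traf5 and not at Tnfrsf13b and Cd40. Over all expressed genes with such a peak, 3.86% had none that was met. Edaradd had 2 Pax5+/+ peaks in this window, of which the one 40 bp from a TSS was met and the one 886 bp from it was not. At Cd40 the unmet Pax5+/+ peak lay 861 bp and the unmet Pax5R31Q/- peak 261 bp from the TSS. The lists hold positions only, from 1 library each, so that the height of a shared peak could not be compared and no test was possible.

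Of 71 further genes of the TNF receptor pathway, 53 passed the filter. The lists of these genes were also drawn up with earlier results of the data known, so that their adjusted p-values, taken over all 13436 genes, are no independent evidence. A pathway gene was called when limma gave an adjusted p under 0.05 and the gene passed 3-fold. None was called in Pax5R31Q/- or Pax5+/- cells against Pax5+/+ cells, and none by limma-voom on the recovered reads. Of all genes, 0.558% were called lower and 0.298% higher in Pax5R31Q/- cells, and 0.0223% lower and 0% higher in Pax5+/- cells. At an unadjusted p under 0.05, 4 (7.55%) were lower and 9 (17.0%) higher in Pax5R31Q/- cells, against 9.94% and 8.82% of all genes. In Pax5+/- cells 2 (3.77%) were lower and 3 (5.66%) higher, against 3.15% and 2.91% of all genes. In Pax5R31Q/- cells 3 genes, Casp8, Tnfrsf10b and Tnfsf11, were higher at an adjusted p under 0.05 (5.66%, against 1.62% of all genes), and none was lower (against 2.55%). All 3 differed by less than 3-fold on the log2(TPM + 1) scale. Of these, Tnfsf11, the gene of the cytokine RANKL, measured 4.63 and 6.31 TPM against 1.96 and 1.66 TPM in Pax5+/+ cells. Its log2 difference was 1.19 (SE 0.23, limma adjusted p = 0.0318). On the TPM scale its mean was 3.02-fold higher, so that it fell short of a call only on the log2(TPM + 1) scale. The median log2 difference in Pax5R31Q/- cells was 0.07 for 16 receptors, 0.01 for 8 ligands, -0.01 for 15 TRAFs and adaptors and -0.07 for 14 NF-κB genes, against 0.04 for all genes and -0.14 for the 9 listed genes.

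In Pax5-/- cells 4 of the 53 genes were called lower and 6 higher, where 3.82% and 3.07% of all genes were called. The receptor genes Tnfrsf1a and Ltbr, which encode the main TNF receptor and the lymphotoxin β receptor, rose. Tnfrsf1a measured 69.7 and 57.3 TPM in Pax5-/- cells and 13.6 and 14.9 TPM in Pax5+/+ cells, a log2 difference of 2.08 (SE 0.14, limma adjusted p = 5.31e-05). Ltbr measured 22.1 and 19.3 TPM against 1.84 and 3.56 TPM, a log2 difference of 2.59 (SE 0.24, limma adjusted p = 0.000215). The receptor genes Relt and Tnfrsf10b were also called higher. Tnfrsf19, an orphan receptor gene, fell from 150 and 122 TPM to 4.36 and 7.69 TPM (log2 difference -4.32, SE 0.22, limma adjusted p = 1.63e-05), while both of its Pax5R31Q/- libraries, at 144 and 129 TPM, lay within the Pax5+/+ range. Tnfrsf8, the gene of CD30, fell from 3.79 and 9.40 TPM to 0.145 and 0.0824 TPM (limma adjusted p = 0.00154), but was not called without Pax5+/+ replicate 2, which left 3 genes called lower.

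Among the ligands, Tnfsf11 reached 19.6 and 28.5 TPM in Pax5-/- cells, a log2 difference of 3.14 (SE 0.23, limma adjusted p = 6.98e-05), and Tnf reached 10.8 and 13.3 TPM against 2.13 and 3.75 TPM (limma adjusted p = 0.00274). Tnf was not called without Pax5+/+ replicate 1, which left 5 genes called higher. Tnfsf10, the gene of TRAIL, fell from 53.2 and 56.5 TPM to a mean of 12.9 TPM (SD 2.71, n = 2; limma adjusted p = 7.19e-05). Tifa, an adaptor that binds TRAF proteins, fell from 746 and 710 TPM to 144 and 238 TPM (limma adjusted p = 0.000383) and was the only one of 15 TRAFs and adaptors to be called. None of the 14 NF-κB genes was called in Pax5-/- cells. The receptors had a median log2 difference of 0.44, the ligands of 0.80, the adaptors of -0.24 and the NF-κB genes of -0.12, against -0.11 for all genes and -0.16 for the 9 listed genes.

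**Figure D4:**
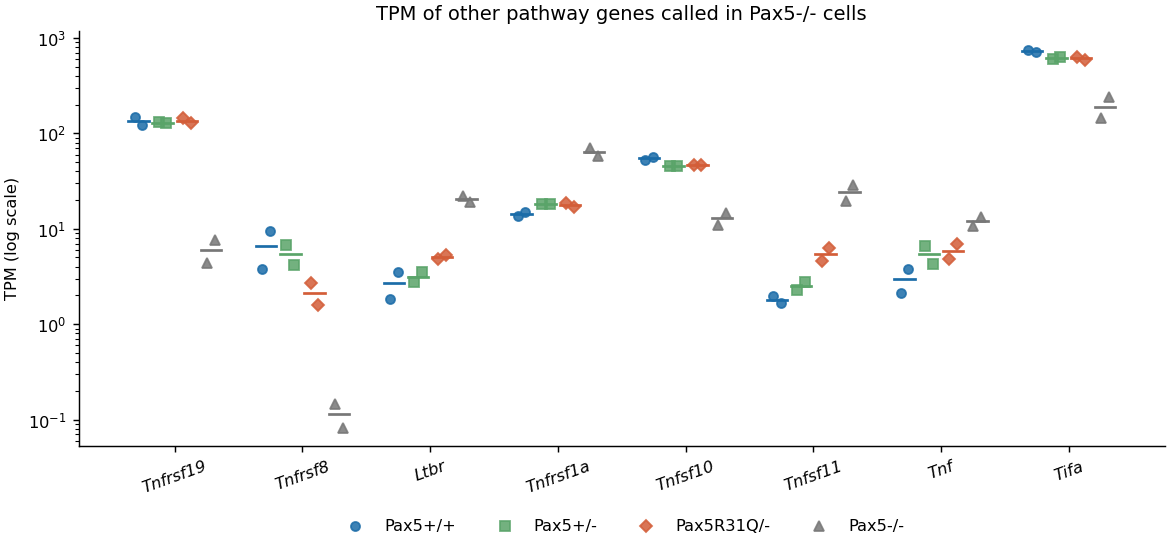
TPM (y axis, log scale) of the called pathway genes with the largest differences (x axis) in the 8 RNA-seq libraries, with 1 point per library and a line at the mean of a genotype. The Pax5-/- libraries stand apart at every gene shown, below the others at Tnfrsf19, Tnfrsf8, Tnfsf10 and Tifa and above them at Ltbr, Tnfrsf1a, Tnfsf11 and Tnf.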

How the data were processed

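Expression values of 8 RNA-seq libraries, 2 per genotype, and the peak positions of 2 Pax5 ChIP-seq libraries were used as deposited. The authors filtered reads against rDNA, aligned them with STAR 2.4.2 to GRCm38/mm10, counted uniquely mapping reads per RefSeq gene with featureCounts and deposited TPM, which are scaled by gene length and library and do not state strand. ChIP-seq reads were aligned by the authors with Bowtie 2 2.3.5.1 and peaks called with MACS against an input. The deposited lists hold positions (1 library each) without height. The authors down-sampled reads to equal numbers for some comparisons, for which lists is not stated, and the read numbers of these libraries were not analysed here.

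log2(TPM + 1) of the 13436 genes with at least 1 TPM in at least 1 library was fitted with limma 3.58.1 (R 4.3.3) over all 8 libraries, with eBayes (trended variance) and Benjamini-Hochberg adjustment. The test of the authors was DESeq2 on counts. A fold change on this scale understates the change of low genes. Whole reads were recovered from the TPM steps, within 0.0001, for all 18206 genes above 0 in at least 2 libraries. As a control, 6 of 17371 genes gave whole reads from values shifted at random by as much as 1 in 1000. Peaks were assigned to RefSeq gene bodies with 10 kb on each side, and an overlap of at least 1 bp counted as met (Python 3.11.15, numpy 2.4.6, pandas 2.3.3, pysam 0.24.0, matplotlib 3.10.9). The repeated sequence was noticed after the lists had been seen.

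The 9 genes, the 4 pathway lists and the marker lists were chosen with earlier results of these data known, so the 9 genes are described by their values, log2 differences and standard errors, and an adjusted p entered only the calls of pathway genes. The rule of 3-fold without a p was added after the data were seen. Named in full are the 9 genes, the called pathway genes with the 2 largest log2 differences per list, direction and comparison against Pax5+/+, the 5 genes most like Edaradd, and Pax5. Ligand and receptor genes of the 9 genes, Relt, Tnfrsf10b, Casp8 and single marker genes were named after their values were seen.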

Additional observations from a re-analysis of the deposited data

How the results depend on the processing

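Which of the 9 genes passed 3-fold did not change with the alternatives listed here (a pseudocount of 0.1, no filter on low TPM, 2 genotypes in the fit, median-ratio scaling, quantile normalization, no trend, limma-voom on recovered reads, and each library left out), which is no independent support, since the genes were chosen on these values. A 2-fold threshold added 1, Edaradd, lower in Pax5+/- cells. When each library was left out in turn, the lone library was assumed to vary like the others. With an adjusted p in the rule, as planned for the 9 genes but void as a test of them, the number lower between Pax5R31Q/- and Pax5+/- cells then ranged from 0 to 1, with Edaradd lost without any of these 4 libraries. The number of pathway genes called lower in Pax5R31Q/- against Pax5+/+ cells ranged from 0 to 1, with Tnfrsf8 called without Pax5+/+ replicate 1. In Pax5-/- cells Tnfrsf8 was lost without Pax5+/+ replicate 2 (3 genes lower) and Tnf without Pax5+/+ replicate 1 (5 genes higher). A 2-fold threshold called 1 pathway gene higher in Pax5R31Q/- cells, Tnfsf11. Of 537 log2 differences of the 9 genes recomputed, 490 moved by less than their standard error, 47 by more, and no difference past 3-fold changed sign. Median-ratio scaling moved the median of all genes between Pax5R31Q/- and Pax5-/- cells from 0.13 to 0.01. With 50 kb on each side, the 9 genes had 48 Pax5+/+ and 38 Pax5R31Q/- peaks, and 31 of the former were met. No paired analysis was possible because the labels give no replicate numbers, and the numbers used here follow the order of the accessions and pair no samples. The 2 libraries per genotype limit the precision of every difference, and the peak lists allow none to be given.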
